A study of Homo sapiens with 4 samples.

Results

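CEACAM1, CEACAM5, CEACAM6 and CEACAM7 of the carcinoembryonic antigen family and TM4SF1 of the L6 family are 5 genes for surface proteins, among 14679 genes with a named probe. They were listed by symbol because some of them moved between FDXR sh434 and shControl cells, and each is represented by its brightest probe over the 4 arrays. The members were therefore chosen on the comparison described below, and their values in it are given as a description with no test. T47D, a human ER+ breast ductal carcinoma cell line, was infected with virus encoding FDXR sh434, a single hairpin against the mRNA of ferredoxin reductase, or with a control hairpin or vector (shControl). All cells were grown in RPMI-1640 with fetal bovine serum, and each condition was measured on 2 Affymetrix arrays labelled as biological replicates. The labels name a retrovirus and the methods a lentivirus, with selection of the infected cells as a population. For 3 arrays the source name does not read T47D, although every growth protocol does.

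CEACAM proteins are cell surface members of the immunoglobulin superfamily that bind themselves or each other on neighbouring cells. CEACAM5, CEACAM6 and CEACAM7 are held in the membrane by a glycosylphosphatidylinositol (GPI) lipid, while CEACAM1 spans the membrane and has a cytoplasmic tail that can recruit the phosphatases SHP-1 and SHP-2. CEACAM5, the carcinoembryonic antigen measured in blood as a tumour marker, and CEACAM6 are raised in many carcinomas. TM4SF1, the L6 antigen, is a small protein that crosses the membrane several times, resembles the tetraspanins in layout and is abundant in endothelium and in several carcinomas.

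The data are log2 signals, so a difference of 1 unit is a doubling, and levels of different probes cannot be set against each other. The median log2 signal of the arrays ranged from 4.76 to 4.78. Pearson's r, taken over probes that are no independent replicates, was 0.994 between the FDXR sh434 arrays, 0.991 between the shControl arrays and 0.987 to 0.988 between conditions. No probe named for FDXR was used here, so its depletion was not analysed here. Of 12 luminal breast markers 9 had a named probe, and all 9, among them GATA3, KRT18 and EPCAM, lay at or above the array median on every array. Of the markers of other cell types, 0 of 2 basal, 0 of 3 leucocyte, 0 of 2 fibroblast and 1 of 5 endothelial genes did so on every array. The summed linear signal of the luminal markers was 11500 to 11600 on the FDXR sh434 arrays and 12300 to 12400 on the shControl arrays. Their log2 fold changes ranged from -0.75 for PGR to 0.26 for KRT18, 4 positive and 5 negative. By limma 0 of the 9 were higher and 0 lower at an adjusted p under 0.05, against 0.298% and 0.402% of all probes. With a spread that follows the signal and robust estimation, KRT18 was called higher (adjusted p = 0.0105) and PGR lower (adjusted p = 8.26e-05). That fit called 5.02% of all probes higher and 3.41% lower. The fibroblast markers with a named probe were LUM and DCN, and their summed linear signal was 20.4 to 23.4 on the FDXR sh434 arrays and 63 to 70.1 on the shControl arrays. LUM, which encodes the matrix proteoglycan lumican, was lower in FDXR sh434 cells, at 4.09 ± 0.17 against 5.95 ± 0.12 in shControl cells (SD, n = 2 arrays each; adjusted p = 0.0213 from limma). The part of these markers in the results below was not tested.

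The start regions of the CEACAM genes are shown because these genes are copies of one another and yet differed in how far their signals moved. RefSeq places CEACAM7, CEACAM5 and CEACAM6 side by side on chromosome 19. The starts of CEACAM7 and CEACAM5 lie 20.4 kb apart on opposite strands, and CEACAM6 starts 46.9 kb from CEACAM5. CEACAM1 starts 773 kb beyond CEACAM6, and TM4SF1 lies on chromosome 3. The sequences below, from RefSeq (GRCh38.p14), run 5′ to 3′ on the strand of the gene and end 50 bases after the start site. They have 150 bases for the CEACAM genes and 300 bases for TM4SF1. Capitals mark matches to any of 6 motifs, searched on both strands: the E-box CACGTG, the GC box GGGCGG, the TATA box TATAAA, an interferon response element (a pair of GAAA blocks 2 bases apart), the AP-1 site TGANTCA and the TEAD core GGAATG.
CEACAM5 (chr19:41708526-41708675, plus strand): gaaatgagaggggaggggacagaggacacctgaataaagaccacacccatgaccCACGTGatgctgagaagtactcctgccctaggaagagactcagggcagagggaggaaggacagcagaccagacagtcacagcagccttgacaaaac
CEACAM6 (chr19:41755430-41755579, plus strand): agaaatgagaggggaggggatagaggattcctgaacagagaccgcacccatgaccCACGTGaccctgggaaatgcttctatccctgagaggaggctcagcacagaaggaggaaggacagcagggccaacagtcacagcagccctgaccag
CEACAM7 (chr19:41688221-41688370, minus strand): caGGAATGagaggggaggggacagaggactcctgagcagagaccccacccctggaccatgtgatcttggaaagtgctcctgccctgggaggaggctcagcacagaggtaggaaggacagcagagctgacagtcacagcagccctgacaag
CEACAM1 (chr19:42528432-42528581, minus strand): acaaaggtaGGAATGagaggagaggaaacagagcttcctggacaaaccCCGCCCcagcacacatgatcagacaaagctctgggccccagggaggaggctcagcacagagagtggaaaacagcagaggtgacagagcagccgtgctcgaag
TM4SF1 (chr3:149377600-149377899, minus strand): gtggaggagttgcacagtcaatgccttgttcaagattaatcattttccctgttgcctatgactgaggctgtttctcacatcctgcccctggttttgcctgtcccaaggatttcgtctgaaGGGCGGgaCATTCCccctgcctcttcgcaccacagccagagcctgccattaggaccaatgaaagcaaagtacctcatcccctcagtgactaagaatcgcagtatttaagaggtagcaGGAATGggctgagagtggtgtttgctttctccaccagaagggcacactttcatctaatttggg

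CEACAM6 had the largest difference of the 5 genes. Its protein is a GPI-anchored adhesion molecule of epithelia and granulocytes. The log2 signal was 6.53 and 6.49 on the FDXR sh434 arrays, against 5.07 and 4.48 on the shControl arrays. The FDXR sh434 arrays differed by 0.03 and the shControl arrays by 0.59, and the conditions did not overlap, with 1.42 between the nearest arrays. The mean was 6.51 ± 0.024 in FDXR sh434 cells and 4.78 ± 0.42 in shControl cells (SD, n = 2), a log2 fold change of 1.73 and a limma SE of 0.206, or 3.32-fold higher in FDXR sh434 cells. By this fold change the probe stood at rank 7 of 38598. On the shControl array of replicate 2 its signal, 4.48, lay below that array's median of 4.78. The shControl signal may thus lie near background, which is unknown here, and the fold change rests on it. In these bulk samples, more cells with the transcript and more transcript per cell cannot be told apart.

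The spread of CEACAM6 lay in shControl cells. Its residual SD of 0.297 was above that of 95.5% of the probes of like signal (the probes were split by mean signal into 4 equal parts), where the median was 0.117. Without the shControl array of replicate 1 its log2 fold change was 2.03, and without the shControl array of replicate 2 it was 1.44.

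TM4SF1 came next. The log2 signal was 7 and 6.97 on the FDXR sh434 arrays, against 5.49 and 5.28 on the shControl arrays. The arrays of 1 condition lay within 0.21 of each other, and 1.48 separated the nearest arrays of different conditions. The mean was 6.99 ± 0.018 in FDXR sh434 cells and 5.39 ± 0.15 in shControl cells (SD, n = 2), a log2 fold change of 1.6 and a limma SE of 0.119, or 3.03-fold higher in FDXR sh434 cells, at rank 18 of all probes. Its residual SD, 0.107, was below the 0.117 median of probes of like signal.

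CEACAM5 had a smaller difference. The log2 signal was 5.18 and 4.85 on the FDXR sh434 arrays, against 3.97 and 4.17 on the shControl arrays. The FDXR sh434 arrays were the higher ones, with 0.68 between the nearest arrays of different conditions. The mean was 5.01 ± 0.23 in FDXR sh434 cells and 4.07 ± 0.14 in shControl cells (SD, n = 2), a log2 fold change of 0.94 and a limma SE of 0.153, or 1.92-fold higher in FDXR sh434 cells. The mean signal over the 4 arrays, 4.54, was below the median of all probes, 4.76, so the probe may lie near background, which is unknown here.

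CEACAM7, a GPI-anchored protein known from the surface of differentiated colon epithelium, was dim on all arrays. Its log2 signal was 3.24 and 3.15 on the FDXR sh434 arrays, against 2.81 and 2.75 on the shControl arrays. The conditions were 0.34 apart at their nearest arrays, and only 18.5% of all probes were dimmer than CEACAM7. The mean was 3.19 ± 0.066 in FDXR sh434 cells and 2.78 ± 0.04 in shControl cells (SD, n = 2), a log2 fold change of 0.41 and a limma SE of 0.106. At such a signal it is not known whether the transcript was present.

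CEACAM1, the family member with a signalling tail, hardly differed. The log2 signal was 5.75 and 5.88 on the FDXR sh434 arrays, against 5.74 and 5.63 on the shControl arrays. The nearest arrays of different conditions were 0.01 apart, less than the 0.13 between the FDXR sh434 arrays. The mean was 5.82 ± 0.09 in FDXR sh434 cells and 5.69 ± 0.076 in shControl cells (SD, n = 2), a log2 fold change of 0.13 and a limma SE of 0.112. The CEACAM1 probe was brighter than 67.5% of all probes.

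**Figure D1:**
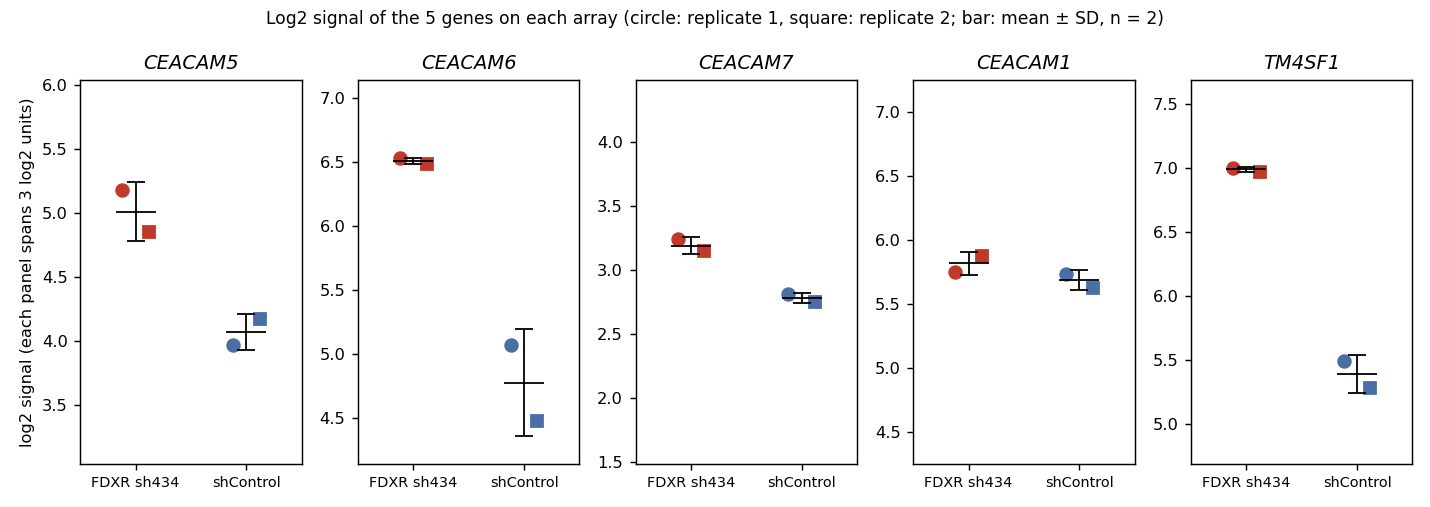
Log2 signal (vertical axes, each spanning 3 log2 units) of CEACAM5, CEACAM6, CEACAM7, CEACAM1 and TM4SF1 in FDXR sh434 (red) and shControl (blue) cells, with circles for replicate 1, squares for replicate 2 and black bars for the mean ± SD of 2 arrays. The FDXR sh434 points lie 1.42 and 1.48 log2 units above the nearest shControl points for CEACAM6 and TM4SF1, and 0.01 for CEACAM1.

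In limma over all 38598 probes, FDXR sh434 against shControl, CEACAM6 and TM4SF1 were 2 of the 115 probes called higher at an adjusted p under 0.05, which is 0.298% of all probes. With a spread that follows the signal and robust estimation, CEACAM5 was called as well, 3 of the 5 genes, where 5.02% of all probes were called higher. In each of the 5 genes both FDXR sh434 arrays lay above both shControl arrays, as they did for 25.6% of probes. The median log2 fold change of the 5 genes was 0.94, the value of CEACAM5, beside 0 over all probes. The list was drawn up on this comparison, so nothing is read from these counts or this median.

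**Figure D2:**
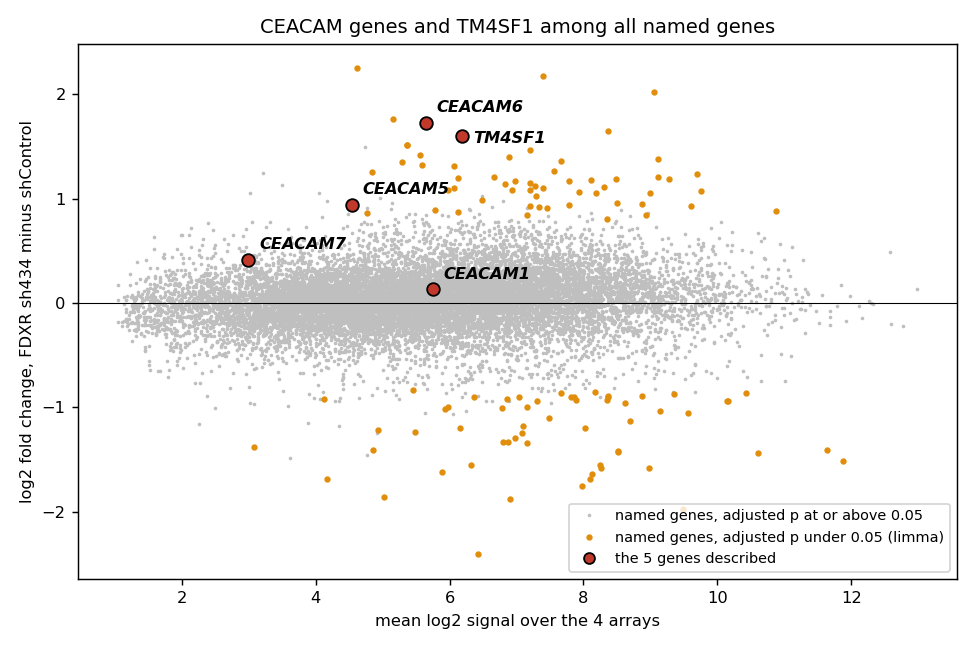
Log2 fold change, FDXR sh434 minus shControl (vertical axis), against mean log2 signal over the 4 arrays (horizontal axis) for the 14679 named genes, with the 5 genes in red and other genes at an adjusted p under 0.05 from limma in orange. CEACAM6 at 1.73 and TM4SF1 at 1.6 stand in the upper edge of the cloud, and CEACAM1 at 0.13 lies inside it.

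The arrays on which CEACAM6 and TM4SF1 were high or low were alike. The likeness of 2 genes was measured as the root mean square distance between their log2 signals over the 4 arrays, each centred on its own mean, where 0 means the same pattern. This distance was 0.15 between CEACAM6 and TM4SF1, the smallest of the 10 pairs among the 5 genes. It was 0.496 between CEACAM5 and CEACAM6, although they lie side by side, and 0.821 between CEACAM1 and CEACAM6, the largest of these pairs. With 2 conditions of 2 arrays the distance follows mostly the size of the fold change.

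Among all other named genes, those nearest to TM4SF1 were BCAS1, named for its amplification in breast cancer, at a distance of 0.0802, KITLG at 0.0913 and ZSCAN12P1 at 0.107. KITLG, the ligand of the receptor tyrosine kinase KIT, had log2 signals of 7.86 and 8.01 on the FDXR sh434 arrays, against 6.6 and 6.33 on the shControl arrays. The genes nearest to CEACAM6 were KRTAP5-2 and KITLG, at 0.185 each, and ZSCAN12P1 at 0.199. The same KITLG and ZSCAN12P1 thus stood near both CEACAM6 and TM4SF1. For CEACAM5 they were CAPN13, a calpain protease gene, at 0.0859, CAMK1D, a calcium- and calmodulin-dependent kinase gene, at 0.0901, and MIR4774 at 0.0942. CAMK1D had log2 signals of 7.02 and 6.93 on the FDXR sh434 arrays and 5.91 and 6.05 on the shControl arrays.
CEACAM7 and CEACAM1 had closer matches, because many genes move little. The nearest to CEACAM7 were BCL9L, DBNDD1 and GCC2, at 0.0138 to 0.0144, and the nearest to CEACAM1 were NMNAT1, TPMT and PILRA, at 0.00441 to 0.00953. These genes were picked for their likeness to the 5, so they are no further evidence of it.

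Genes beside the 5 in the genome were compared next, to see how far along the chromosome the difference extended. Of 76 other RefSeq genes whose annotated left end lies within 300 kb of that of a member, 26 had a named probe. By limma 0 of them were higher and 0 lower at an adjusted p under 0.05, against 0.298% and 0.402% of all probes. Without adjustment 1 was higher and 1 lower at p under 0.05. Of all 38598 probes, 6659 had such a p in either direction. The median log2 fold change of the 26 neighbours was 0.10. With the signal-dependent spread, which called 3.41% of all probes lower, 1 neighbour was higher, the kinase gene GSK3A, and 2 were lower, RPS19 and CP. GSK3A and CP are named because few passed.
Around the CEACAM5, CEACAM6 and CEACAM7 genes the nearest measured genes were CEACAM4 on the left and LYPD4 on the right. The CEACAM4 log2 signal was 3.5 ± 0.18 in FDXR sh434 cells and 3.33 ± 0.013 in shControl cells (SD, n = 2), a log2 fold change of 0.17 (adjusted p = 0.561 from limma). LYPD4 had a log2 fold change of 0.25 (limma SE 0.152 and adjusted p = 0.471). RPS19, a ribosomal protein gene 152 kb from the start of CEACAM5 and the brightest of the neighbours, had 10.27 ± 0.052 in FDXR sh434 cells and 10.49 ± 0.068 in shControl cells (SD, n = 2), a log2 fold change of -0.22 (adjusted p = 0.364).
Beside CEACAM1, CXCL17, a mucosal chemokine gene, had a log2 fold change of 0.13 (limma SE 0.155 and adjusted p = 0.715), and CEACAM8, a granulocyte antigen gene, one of 0.16 (limma SE 0.232 and adjusted p = 0.779). Beside TM4SF1 lie its relatives TM4SF18, with a log2 fold change of -0.25 (limma SE 0.114 and adjusted p = 0.339), and TM4SF4, with one of -0.02 (limma SE 0.136 and adjusted p = 0.962). HPS3, the brightest measured gene near TM4SF1, had one of 0.04 (limma SE 0.107 and adjusted p = 0.902).
CP, the ceruloplasmin gene 215 kb from TM4SF1, was chosen after its values were seen. Its log2 signal was 3.64 ± 0.12 in FDXR sh434 cells and 4.43 ± 0.39 in shControl cells (SD, n = 2), a log2 fold change of -0.79 that did not pass (adjusted p = 0.148 from limma) and that passed with the signal-dependent spread (adjusted p = 0.046).

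**Figure D3:**
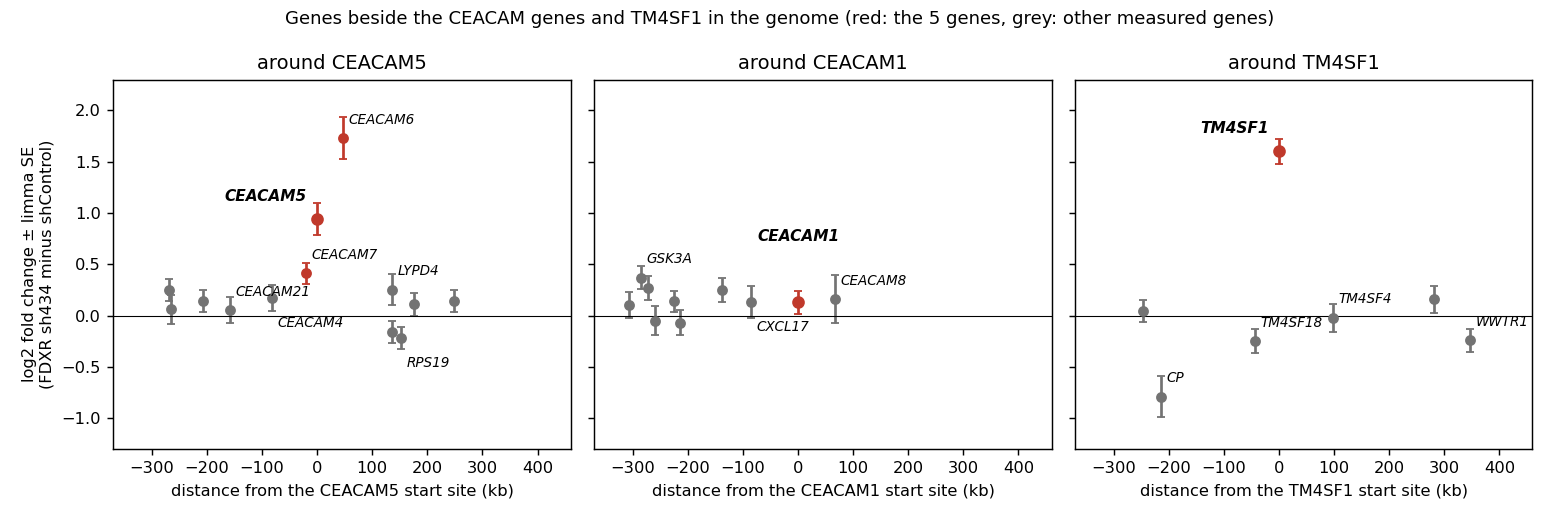
Log2 fold change, FDXR sh434 minus shControl, with the limma standard error (vertical axis) against distance in kb from the start site of CEACAM5, CEACAM1 and TM4SF1 (horizontal axes), for the genes with a named probe. The 5 genes are red and other genes grey. CEACAM6 at 1.73, CEACAM5 at 0.94 and TM4SF1 at 1.6 stand above neighbours that range from -0.79 to 0.37.

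The wider carcinoembryonic antigen family holds the other CEACAM genes and the pregnancy-specific glycoproteins (PSG). Of 18 listed, 9 had a named probe, and CEACAM3 and CEACAM18 were not analysed here. By limma 0 of the 9 were higher and 0 lower, and the median log2 fold change was 0.06. Before adjustment 1 was higher and 0 lower at p under 0.05, beside 6659 of all 38598 probes in either direction. PSG9, a secreted glycoprotein gene best known from the placenta, had a log2 signal of 6.01 ± 0.044 in FDXR sh434 cells and 5.5 ± 0.12 in shControl cells (SD, n = 2), a log2 fold change of 0.51 (limma SE 0.115 and adjusted p = 0.12). PSG9 was called higher with the signal-dependent spread (adjusted p = 0.0299). CEACAM19 had a log2 fold change of -0.13 (limma SE 0.218 and adjusted p = 0.809). The range over these 9 genes was -0.21 to 0.51. Genes of this family resemble each other in sequence, and how far the array's probes tell them apart was not tested.

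Of 38 other L6 and tetraspanin genes, which organise partner proteins in the membrane, 37 had a named probe. By limma 2 were higher and 0 lower, against 0.298% and 0.402% of all probes, and the median log2 fold change was 0.05. With the signal-dependent spread 3 were higher and 0 lower, against 5.02% and 3.41% of all probes. UPK1A, a tetraspanin of the urothelial plaque, rose to 7.59 ± 0.051 in FDXR sh434 cells, against 6.19 ± 0.043 in shControl cells (SD, n = 2), a log2 fold change of 1.40 (limma SE 0.104 and adjusted p = 0.0214). TSPAN1, a tetraspanin of epithelial cells, rose to 6.61 ± 0.031 in FDXR sh434 cells, against 5.51 ± 0.02 in shControl cells (SD, n = 2), a log2 fold change of 1.10 (limma SE 0.101 and adjusted p = 0.0262). The brightest genes that did not pass were TSPAN13, at 0.08 (adjusted p = 0.73), and TSPAN15, a partner of the protease ADAM10, at 0.23 (adjusted p = 0.341). Among the relatives of TM4SF1 by name in this list, TM4SF4 and TM4SF18 are given with its neighbours above.

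Of 29 listed binding partners and signalling proteins of CEACAM1 and TM4SF1, 14 had a named probe. By limma 0 were higher and 0 lower, and the median log2 fold change was -0.07. Before adjustment 1 was higher and 3 lower at p under 0.05, beside 6659 of all 38598 probes in either direction. With the signal-dependent spread 1 was higher and 2 were lower, against 5.02% and 3.41% of all probes. STAT3, a transcription factor downstream of cytokine receptors, had a log2 fold change of -0.02 (adjusted p = 0.939), and SHC1, an adaptor of receptor tyrosine kinases, one of -0.15 (adjusted p = 0.542).
Of 32 genes that make, attach or trim the GPI anchor, 9 had a named probe, and 0 were higher and 0 lower by limma. Before adjustment 3 were higher and 0 lower at p under 0.05, beside 6659 of all 38598 probes in either direction. The signal-dependent spread gave 2 higher, against 5.02% of all probes, and the 9 genes had a median of 0.05 on the log2 scale. PGAP2 had a log2 fold change of 0.05 (adjusted p = 0.852 from limma) and PGAP6, which releases some GPI-anchored proteins, one of -0.05 (adjusted p = 0.876).

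Genes for other GPI-anchored proteins came next, since CEACAM5 and CEACAM6 carry that anchor. Of 49 listed, 36 had a named probe, and the median log2 fold change was 0.07. By limma 0 were higher and 1 lower, against 0.298% and 0.402% of all probes. With the signal-dependent spread 3 were higher and 3 lower, against 5.02% and 3.41% of all probes. GPC6, a glypican that carries heparan sulfate, fell to 7.91 ± 0.029 in FDXR sh434 cells, against 8.81 ± 0.033 in shControl cells (SD, n = 2), a log2 fold change of -0.90 (limma SE 0.102 and adjusted p = 0.0399). BST2, the antiviral tether, had a log2 fold change of -0.85 (adjusted p = 0.0512) and CD24, a heavily glycosylated surface antigen, one of 0.16 (adjusted p = 0.516). With the signal-dependent spread BST2 was called lower (adjusted p = 0.000103) and CD24 was not called (adjusted p = 0.126).

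Of 49 other adhesion genes of the immunoglobulin superfamily, 39 had a named probe, and the median log2 fold change was -0.03. By limma 1 was higher and 1 lower, against 0.298% and 0.402% of all probes. With the signal-dependent spread 2 were higher and 4 lower, against 5.02% and 3.41% of all probes. ALCAM, which binds itself and the T cell receptor CD6, rose to 8.71 ± 0.052 in FDXR sh434 cells, against 7.66 ± 0.022 in shControl cells (SD, n = 2), a log2 fold change of 1.05 (limma SE 0.103 and adjusted p = 0.0288). ICAM1, the ligand of leucocyte integrins, fell to 6.45 ± 0.11 in FDXR sh434 cells, against 7.71 ± 0.044 in shControl cells (SD, n = 2), a log2 fold change of -1.25 (limma SE 0.113 and adjusted p = 0.0261). The brightest that did not pass were BSG (basigin), at -0.41 (adjusted p = 0.17), and NCAM2, at -0.67 (adjusted p = 0.0653), both of which were called lower with the signal-dependent spread.

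Of 18 transcription factors tied in earlier work to CEACAM genes or TM4SF1 or to epithelial identity, 14 had a named probe. By limma 1 was higher and 1 lower, against 0.298% and 0.402% of all probes, and the median log2 fold change was 0.02. With the signal-dependent spread 5 were higher and 1 lower, against 5.02% and 3.41% of all probes. SOX9, a factor of epithelial progenitors, rose to 8.7 ± 0.19 in FDXR sh434 cells, against 7.52 ± 0.079 in shControl cells (SD, n = 2), a log2 fold change of 1.18 (limma SE 0.134 and adjusted p = 0.0402). YAP1, the Hippo pathway coactivator that acts through TEAD factors, fell to 7.81 ± 0.037 in FDXR sh434 cells, against 9.24 ± 0.018 in shControl cells (SD, n = 2), a log2 fold change of -1.42 (limma SE 0.102 and adjusted p = 0.0213). A second, dimmer YAP1 probe had a log2 fold change of -1.61 (limma SE 0.212 and adjusted p = 0.0526). RELA had one of 0.45 (adjusted p = 0.244) and SP1 one of 0.39 (adjusted p = 0.16). Both were called higher with the signal-dependent spread (adjusted p = 0.0412 for RELA and 0.00626 for SP1).

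**Figure D4:**
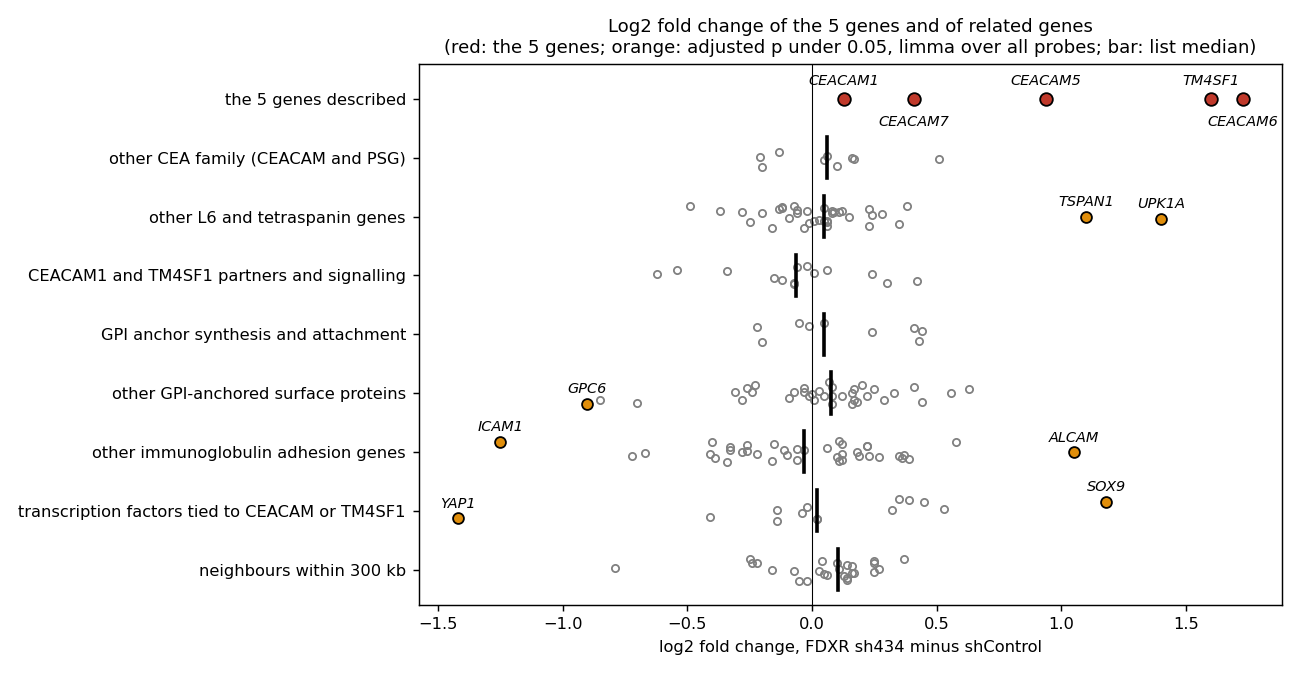
Log2 fold change, FDXR sh434 minus shControl (horizontal axis), of the 5 genes (red) and of each measured gene in the related lists (rows), with genes at an adjusted p under 0.05 from limma over all probes in orange and the median of each related list as a bar. The medians lie between -0.07 and 0.10. The genes past the threshold are UPK1A, TSPAN1, ALCAM and SOX9 on the higher side and YAP1, ICAM1 and GPC6 on the lower side.

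The start regions printed above were alike among the CEACAM genes. Over 300 bases, 250 before and 50 after the start site, global alignment gave an identity of 78.8% of aligned bases between CEACAM5 and CEACAM6, 84.7% between CEACAM5 and CEACAM7, 81.5% between CEACAM6 and CEACAM7 and 72% to 77.1% between CEACAM1 and these. Between TM4SF1 and any CEACAM gene, which are not related, it was 56.8% to 61%. Gap positions, left out of these shares, numbered 72 to 92 in the pairs with TM4SF1 and 4 to 28 in the pairs of CEACAM genes.
The E-box CACGTG stood in the windows of CEACAM5, at base -46, and of CEACAM6, at base -45, counted from the start site. It was in none of the windows of CEACAM7, CEACAM1 and TM4SF1, nor in those of CEACAM3, CEACAM4, CEACAM8 and CEACAM21, and in 7.26% of 35116 RefSeq windows of that length. USF1, a factor known to bind E-boxes, was chosen after its values were seen and had a log2 fold change of 0.32 (limma SE 0.107 and adjusted p = 0.226). USF1 was called higher with the signal-dependent spread (adjusted p = 0.0455).
The TEAD core GGAATG stood in the windows of TM4SF1, at bases -122 and -13, of CEACAM1, at base -91, and of CEACAM7, at base -98. It stood in a window of 3 of the 4 other CEACAM genes (CEACAM3, CEACAM4 and CEACAM21) and in 14% of all windows. For CEACAM21 all its RefSeq windows were searched. The GC box stood in the windows of CEACAM1, CEACAM6 and TM4SF1 and in 45% of all windows. It also stood in a window of 2 of the 4 other CEACAM genes (CEACAM8 and CEACAM21). The TATA box stood in the window of CEACAM6, in those of 0 of the 4 other CEACAM genes and in 11.5% of all windows. The GC box of CEACAM6, at base -211, and its TATA box, at base -139, lie outside the printed stretch. The interferon response element stood in that of CEACAM1, at base -116, outside the printed stretch, and in 3.57% of all windows. The AP-1 site was in none of the 5 and in 7.71% of all windows. No matches of different motifs overlapped in the 5 windows. A match describes the letters of the window only. The motifs were chosen after the start regions had been read, so no result is drawn from which genes hold them. Whether a motif or USF1 has a part in the differences was not tested.

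The order of the log2 fold changes, CEACAM6, TM4SF1, CEACAM5, CEACAM7 and CEACAM1, was the same with all 4 arrays and without any 1 of them, except that TM4SF1 stood above CEACAM6 without the shControl array of replicate 2, at 1.49 against 1.44. With an array left out the log2 fold change ranged from 1.44 to 2.03 for CEACAM6, from 1.49 to 1.70 for TM4SF1 and from 0.78 to 1.10 for CEACAM5. It ranged from 0.37 to 0.46 for CEACAM7 and from 0.07 to 0.19 for CEACAM1. The ranges of CEACAM6 and TM4SF1 overlapped. With 2 arrays in each condition such a range only restates the difference between replicates, and no difference between the 5 genes was tested.

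**Figure D5:**
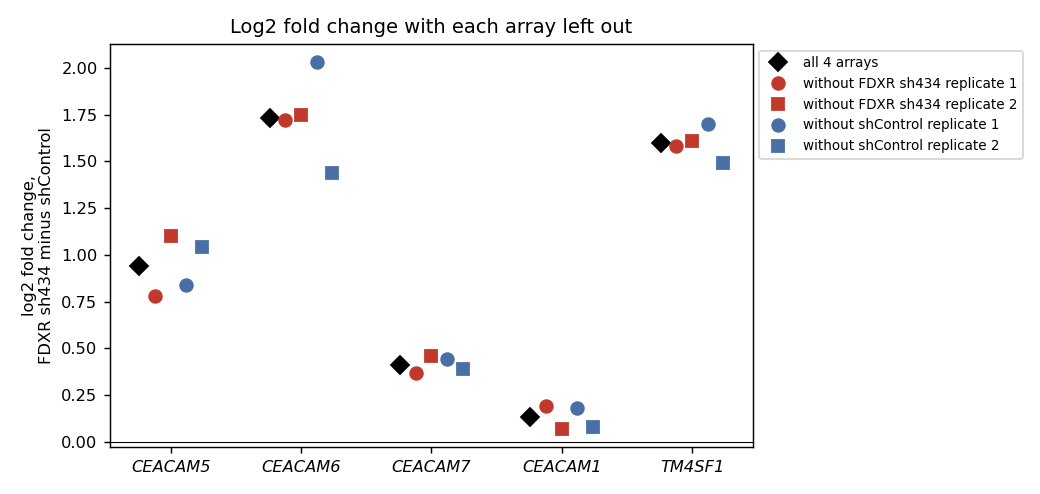
Log2 fold change, FDXR sh434 minus shControl (vertical axis), of the 5 genes with all 4 arrays (black diamonds) and with each FDXR sh434 array (red) or shControl array (blue) left out, with circles for replicate 1 and squares for replicate 2. CEACAM6 moves most, between 1.44 and 2.03, and does so with the shControl arrays.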

How the data were processed

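Total RNA of 4 samples was measured on Affymetrix arrays. The authors deposited log2 signals of 38598 probes on 1 scale, from 0.69 to 13.74. For the handling of background, probe sets and arrays the method was not given in the sources used here. Per the submitters' processing notes, limma 3.50.3 was among the tools. Scanner values were not used here, which leaves signal over background unknown. Precision is limited by the number of arrays. The platform annotation names 1 gene for 15715 probes, none for 22883 and several for 0. Each of the 5 members had 1 named probe.

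FDXR sh434 was compared with shControl with limma 3.58.1 (lmFit, then eBayes; R 4.3.3), with condition as the only term and Benjamini-Hochberg adjustment over all probes at 0.05. The fit had 2 residual and 3.45 prior degrees of freedom. The p-values measure the spread between these samples only. The fit was tested on simulated data.

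The members, the 7 gene lists and the tests were chosen with earlier results of these data known, and the motifs after the start regions had been read. Genes named in the text are the members, in each list and among the neighbours at most 4 past the threshold and the 2 brightest that were not, the nearest measured neighbours, and the 3 genes most like each member. Alternatives were an intensity trend with robust estimation, the replicate block, quantile normalization, median centring, leaving out dim probes (mean signal under 4.76), the methods' t-test, the mean over a gene's probes, each array left out and, added after seeing the data, the trend with each array left out. Alignment used Biopython 1.88. Tables and figures used Python 3.11.15, pandas 2.3.3, numpy 2.4.6 and matplotlib 3.10.9.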

Additional observations from a re-analysis of the deposited data

How the results depend on the processing

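The log2 fold changes of the 5 genes kept their sign in the alternatives run for them. Leaving out dim probes was run for counts of calls only, and it removes CEACAM5 and CEACAM7. With 2 arrays in each condition, leaving 1 out only restates the difference between replicates. With an array left out they ranged from 1.44 to 2.03 for CEACAM6, 1.49 to 1.70 for TM4SF1, 0.78 to 1.10 for CEACAM5, 0.37 to 0.46 for CEACAM7 and 0.07 to 0.19 for CEACAM1. Calls depended on the fit. Beside 115 probes higher and 155 lower, the intensity trend with robust estimation called 1937 and 1318, and leaving out dim probes 1546 and 995. The methods' t-test had 3122 higher and 2246 lower at its threshold and 0 and 0 after adjustment. Replicates share only a number (correlation of same-numbered deviations 0.00196), and the replicate block called 0 higher and 0 lower, with 3302 and 2966 at an unadjusted p under 0.05. With an array left out the counts ranged from 0 to 1842 higher and from 0 to 1276 lower, where 0 is limma without the trend for each of the 4 arrays. With the trend they were 259 and 321 without FDXR sh434 replicate 1, 266 and 305 without FDXR sh434 replicate 2, 1842 and 1064 without shControl replicate 1 and 1657 and 1276 without shControl replicate 2.

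Of 157 genes in the 7 lists, 4 were higher and 3 lower. These became 17 and 10 with the intensity trend, 14 and 12 without dim probes and 0 and 0 with the replicate block. With an array left out they ranged from 0 to 14 higher and from 0 to 10 lower, and with the trend were 5 and 6, 4 and 6, 11 and 9, and 14 and 10 in the same order of arrays. The 7 called genes all passed with the intensity trend, also without any 1 array (adjusted p of 8.09e-06 to 0.0208), after quantile normalization, after median centring and without dim probes. All 7 lost their call with the replicate block and, without the trend, without any 1 array. Of the neighbours, 1 was higher and 2 lower with the intensity trend, and with an array left out 0 to 1 and 0 to 2. Of 64 alternative medians of these lists and the neighbours, 40 moved by less than the spread between arrays of 1 condition and 24 by more.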
